A study of Rattus norvegicus with 8 samples.

Results

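The genes described here encode enzymes that make, break down or respond to the cyclic nucleotides cAMP and cGMP. They were chosen by gene symbol, as the adenylyl cyclases (Adcy), the soluble and receptor guanylyl cyclases (Gucy), the phosphodiesterases (Pde), the catalytic and regulatory subunits of protein kinase A (Prkac and Prkar), protein kinase G (Prkg) and the Epac exchange factors (Rapgef3 and Rapgef4). A gene was kept where any library had a normalized read count above 0, which held for 52 genes, out of 22798 genes with a read and 32545 Ensembl genes listed. The 52 genes carry 51 symbols, because Pde4c stands on 2 Ensembl genes. Of these 52, 47 reached a minimum of 10 normalized counts in 2 or more libraries and were tested. The other 5 had too few reads. Apart from the presence of a read, the rule used no measured level.

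Bulk RNA-seq was carried out on sciatic nerve tissue from 8 female rats of the outbred Sprague Dawley strain, aged between 3 and 6 months. Peripheral nerve allografts (PNAs) are nerve segments of a donor rat that were sutured into a gap in the sciatic nerve of an unmatched host rat without immune suppression, and were excised at 14 days post-operatively. PEG-fused PNAs (PEG, n = 3) were treated with the PEG-fusion protocol, in which polyethylene glycol is applied to the sutured, open axon ends. Negative control PNAs (NC, n = 3) received no PEG, but shared with the PEG-fused PNAs the allograft, the hypotonic saline, the methylene blue, the microsutures and the final wash with calcium-containing saline. Unoperated sciatic nerves (Unop, n = 2) had neither graft nor surgery. A PNA holds donor cells beside cells of the host, so that the level of a gene is a sum over donor and host cells of many types, and the comparisons with Unop rest on 2 nerves.

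Adenylyl cyclases make cAMP when the stimulatory G protein Gs couples a receptor to them, and guanylyl cyclases make cGMP when nitric oxide or a peptide binds. Phosphodiesterases hydrolyse these messengers, and protein kinase A (PKA), protein kinase G (PKG) and Epac carry their signals onward. In peripheral nerve, cAMP is known for its part in the switch of Schwann cells to the myelinating state after axon contact, and in T cells and macrophages a rise in cAMP is known to dampen activation.

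Between 32472925 and 39959620 reads lay on genes in each library. Levels are given as normalized read counts, which are not corrected for gene length, so levels are compared between libraries and never between genes. A fold change is a difference of means of log2(normalized read count + 1) between 2 groups, with the standard error (SE) from limma, and a gene is called where its Benjamini-Hochberg adjusted p over the 16478 tested genes is under 0.05. At low counts, the added 1 makes a fold change look smaller than it is.

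The markers of other cell types differed strongly among the groups, as the plot of summed markers shows. The 7 T cell markers summed to between 1751 and 4961 in PEG-fused PNAs, between 20210 and 37933 in NC PNAs and between 206 and 394 in Unop nerves, and all 7 were called lower in PEG-fused than in NC PNAs. Of the 7 macrophage markers, 5 were called lower in PEG-fused than in NC PNAs. Their sums were between 227360 and 284440 in PEG-fused PNAs, 501370 and 723930 in NC PNAs and 21141 and 31484 in Unop nerves. Most of each sum was Lyz2 alone, at 229940, 175470 and 183290 in PEG and 437480, 646890 and 624850 in NC. Itgam and Cd68 were not called between the kinds of PNA, at log2 fold changes of -0.37 and 0.36, so Cd68 went the other way. Repair Schwann cell markers summed to between 25845 and 32867 in PEG-fused PNAs, 11916 and 14430 in NC PNAs, and 4559 and 5821 in Unop nerves, with 4 of 7 called higher in PEG-fused than in NC PNAs. All 7 myelinating Schwann cell markers were called lower in either kind of PNA than in Unop nerves, from sums of at least 2757100 in Unop to at most 67466 in PNAs, and so were all 7 adipocyte markers, from at least 98312 to at most 14504. The 6 skeletal muscle markers were uneven within groups, with sums of 731060, 12100 and 265920 in NC 1, NC 2 and NC 3 and between 2953 and 39338 elsewhere. No marker of these 6 lists was at 0 in all libraries of a group, whereas the endothelial marker Cldn5 was listed at 0 in every library.

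**Figure D1:**
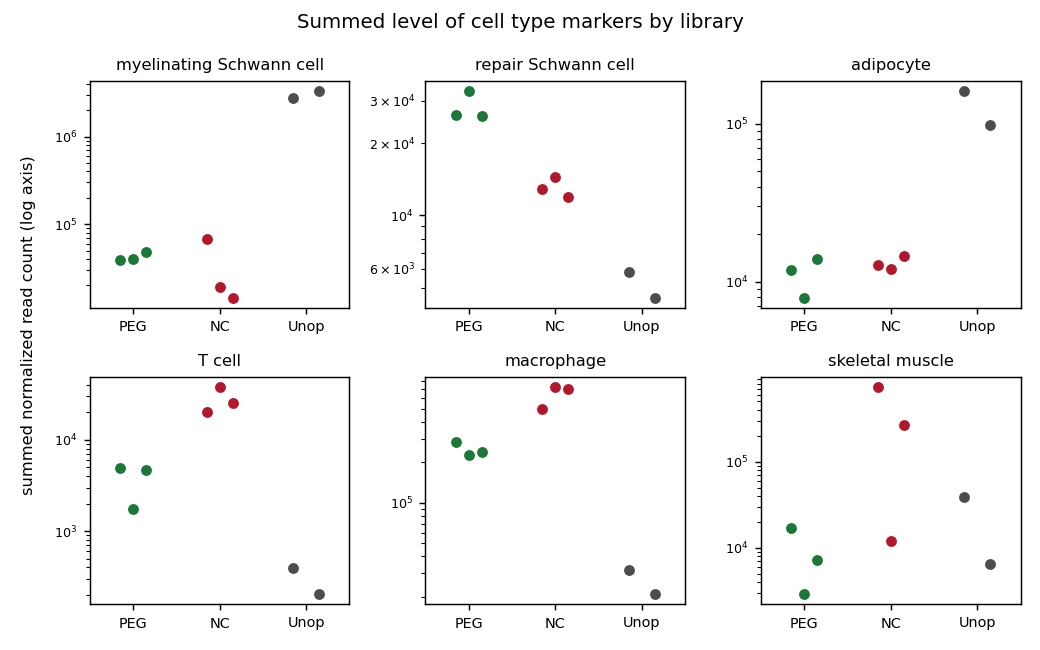
Summed normalized read counts of the markers of 6 cell types (log axes), with 1 point per library of PEG-fused PNAs (PEG), NC PNAs and Unop nerves. T cell and macrophage sums were highest in NC PNAs (20210 or more and 501370 or more), repair Schwann cell sums in PEG-fused PNAs (25845 or more), and myelinating Schwann cell and adipocyte sums in Unop nerves (2757100 or more and 98312 or more).

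The first comparison asked how the enzymes of cyclic nucleotide signaling differed between allografts with and without PEG. Of the 47 tested genes, 17 were called between PEG-fused and NC PNAs (36.2%), beside 28.9% of all tested genes. Without PEG 2 this count was 8 of 47 (17%), beside 16.8% of all genes then tested, and without PEG 3 it was 10 (21.3%), beside 19.1%. The 17 genes comprised 12 higher (25.5%) and 5 lower (10.6%) in PEG-fused PNAs, beside 15.0% and 13.9% of all tested genes. The counts by role below stand beside the same 15.0% and 13.9%. The higher genes include Gucy2e, which reached the minimum of 10 counts through PEG-fused PNAs alone. The groups did not overlap in 28 of the 47 (59.6%), beside 48.9%. Of the 47, 9 were called and also passed a log2 fold change of 1 or -1, beside 11.5% of all tested genes. The median log2 fold change was 0.08, beside 0.00174 over all tested genes. In bulk tissue, fewer cells of a type and less RNA per cell cannot be told apart, and this holds for each result given here.

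**Figure D2:**
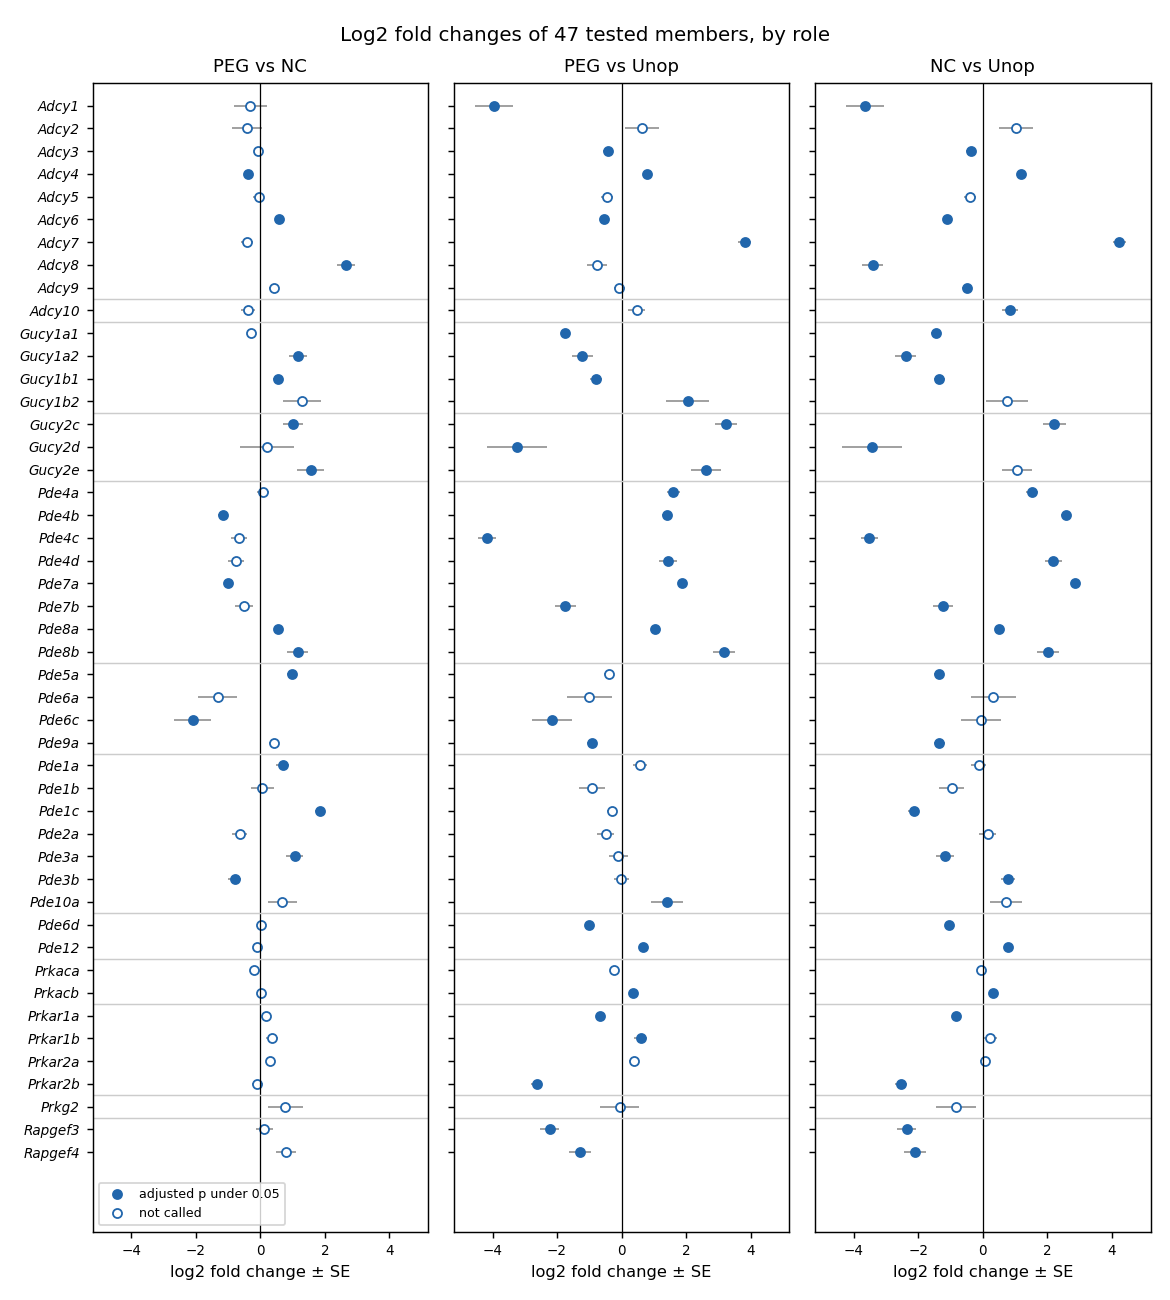
Log2 fold changes (x axes, ± SE) of the 47 tested genes in PEG-fused against NC PNAs, PEG-fused PNAs against Unop nerves and NC PNAs against Unop nerves, ordered by role from adenylyl cyclases at the top to Epac at the bottom, with filled points for adjusted p under 0.05. Called points number 17, 31 and 33, and none of the 9 kinase and Epac genes at the bottom is filled in PEG-fused against NC PNAs.

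Among the 9 membrane adenylyl cyclases, 2 were higher and 1 was lower in PEG-fused than in NC PNAs. Adcy8 (ENSRNOG00000004890), a cyclase stimulated by calcium and calmodulin, had normalized read counts of 139, 148 and 163 in PEG, 14.3, 28.0 and 29.9 in NC and 225 and 286 in Unop. Every PEG-fused PNA lay above every NC PNA and below both Unop nerves. The log2 fold change was 2.65 ± 0.29 (SE, limma adjusted p = 0.000897), or a 6.23-fold ratio of means, the widest difference among the called genes. Adcy6 (ENSRNOG00000054757), a cyclase inhibited by calcium, had counts of 1932, 2262 and 1931 in PEG, 1415, 1362 and 1321 in NC and 2860.1 and 3102 in Unop. Its levels were likewise in the middle in PEG-fused PNAs without overlap with either group, at a log2 fold change of 0.58 ± 0.09 (SE, limma adjusted p = 0.00288) over NC PNAs. Adcy4 (ENSRNOG00000020401), a cyclase that Gs and G protein beta-gamma subunits stimulate, had counts of 1762, 1399.5 and 1608 in PEG, 1830.1, 2228 and 2195 in NC and 836 and 984 in Unop. The NC PNAs lay highest and the Unop nerves lowest, with the nearest PEG-fused and NC libraries close to each other. The log2 fold change was -0.39 ± 0.12 (SE, limma adjusted p = 0.0456). The call of Adcy4 was lost without PEG 2, PEG 3, NC 2 or NC 3 (adjusted p = 0.104 to 0.154), with a block by replicate number (adjusted p = 0.083) and with no filter on low counts (adjusted p = 0.0577).

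The other membrane cyclases were not called between the kinds of PNA. Adcy7 (ENSRNOG00000014776), known as the main cyclase of many blood cells, had counts of 2049, 1975 and 2384 in PEG, 2138, 3456 and 3100.4 in NC and 168 and 134 in Unop, with NC 1 among the PEG-fused PNAs, and a log2 fold change of -0.42 ± 0.18 (SE, limma adjusted p = 0.126). Of the alternatives run, only the fit without NC 1 called it (adjusted p = 0.0151). Adcy9 had counts of 201, 208 and 188 in PEG and 153, 131 and 164 in NC, which did not overlap, at a log2 fold change of 0.42 (adjusted p = 0.0674). Adcy2 was spread within NC PNAs, at 513, 125 and 357 in NC 1, NC 2 and NC 3 against 202, 237 and 204 in PEG-fused PNAs, and the 3 NC libraries stood in the same order as their skeletal muscle sums. Other genes stood in this order too, among them Adcy1 and Pde7b, whose counts are given below. The part of muscle in these genes was not tested. Adcy1, Adcy3 and Adcy5 had log2 fold changes between -0.31 and -0.06, and Adcy10, the soluble cyclase that bicarbonate activates, was at -0.39 (adjusted p = 0.232).

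Of the 4 subunits of soluble guanylyl cyclase, the receptor of nitric oxide, 2 were higher in PEG-fused PNAs. Gucy1a2 (ENSRNOG00000029876), an alpha subunit, had counts of 61.2, 40.2 and 74.1 in PEG, 23.2, 20.4 and 31.8 in NC and 131 and 136 in Unop. Gucy1b1 (ENSRNOG00000012060), the beta subunit of the active dimers, had counts of 666, 639 and 489.7 in PEG, 379.8, 358 and 479 in NC and 981 and 1077 in Unop. Both lay lowest in NC PNAs and highest in Unop nerves with no overlap among the 3 groups. Their log2 fold changes over NC PNAs were 1.17 ± 0.29 (SE, limma adjusted p = 0.0188) and 0.56 ± 0.16 (SE, limma adjusted p = 0.0317), respectively. Gucy1a1 (ENSRNOG00000012302), the other alpha subunit, had counts of 663, 578 and 745 in PEG, 685, 919.8 and 808 in NC and 2241 and 2165 in Unop. Here PEG-fused and NC PNAs overlapped, at a log2 fold change of -0.28 ± 0.13 (SE, limma adjusted p = 0.156). The counts of Gucy1b2 were 18.5, 21.5 and 15.0 in PEG and 3.57, 9.68 and 8.68 in NC, also without overlap, but the log2 fold change of 1.30 (adjusted p = 0.135) was not called. The call of Gucy1a2 was lost without PEG 1, PEG 3 or NC 2 (adjusted p = 0.0507 to 0.0699), and that of Gucy1b1 without PEG 1, PEG 2, NC 1 or NC 2 (adjusted p = 0.0728 to 0.109) and with a block by replicate number (adjusted p = 0.0695).

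Of the 3 tested receptor guanylyl cyclases, 2 were higher in PEG-fused PNAs, both at low counts. Gucy2c (ENSRNOG00000009031), known as the receptor of guanylin and uroguanylin in the intestine, had counts of 58.4, 88.8 and 57.2 in PEG, 25.0, 39.8 and 33.8 in NC and 7.51 and 5.0 in Unop. The libraries were ordered PEG-fused, NC and Unop from high to low without overlap, and the log2 fold change over NC PNAs was 1.02 ± 0.31 (SE, limma adjusted p = 0.0403). Gucy2e (ENSRNOG00000015058), known from photoreceptors, had counts of 13.0, 24.3 and 11.3 in PEG, 4.47, 4.30 and 4.82 in NC and 2.15 and 1.25 in Unop. Each PEG-fused PNA lay above each NC PNA, at a log2 fold change of 1.56 ± 0.41 (SE, limma adjusted p = 0.0236). Only the PEG-fused PNAs reached the minimum of 10 counts. Gucy2e lost its call without PEG 1, PEG 2, NC 2 or NC 3 (adjusted p = 0.0515 to 0.0932), with a block by replicate number (adjusted p = 0.0529) and with DESeq2 on the recovered reads (adjusted p = 0.0528). Gucy2c lost its call without PEG 1, PEG 2, PEG 3, NC 1 or NC 3 (adjusted p = 0.0735 to 0.147), with the block (adjusted p = 0.0747) and with no filter (adjusted p = 0.068).

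Among the phosphodiesterases, the cAMP-specific families Pde4, Pde7 and Pde8 moved in different directions between PEG-fused and NC PNAs, with 2 of 8 tested genes higher, 2 lower and 4 not called. Pde4b (ENSRNOG00000005905), the Pde4 form best known from inflammatory cells, had counts of 932, 707 and 749.5 in PEG, 1549, 1805 and 2025 in NC and 302 and 290.2 in Unop. Pde7a (ENSRNOG00000013048), known from T cells, had counts of 759, 585 and 724 in PEG, 1277, 1453 and 1365 in NC and 192 and 180.1 in Unop. In both, all NC PNAs lay above all PEG-fused PNAs and these above both Unop nerves. PEG-fused PNAs were lower by log2 fold changes of -1.17 ± 0.14 (SE, limma adjusted p = 0.00111) and -0.99 ± 0.12 (SE, limma adjusted p = 0.00127), respectively. Within the PNAs, PEG 2 and NC 1 had the lowest T cell sums of their groups, and also the lowest counts of Pde4b and Pde7a. Both genes followed the full order of the T cell sums in PEG-fused PNAs. In NC 1, NC 2 and NC 3 the T cell sums were 20210, 37933 and 25354, an order that Pde7a shared and Pde4b did not. NC 1 also had the highest skeletal muscle sum. The part of T cells, macrophages and muscle in these differences was not tested. Pde4d followed the same order of groups at 186.3, 224 and 221 in PEG, 277, 363 and 438 in NC and 59.0 and 100.1 in Unop, and its log2 fold change of -0.75 ± 0.24 (SE, limma adjusted p = 0.05) lay at the threshold without passing it.

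Pde8a and Pde8b, cAMP-specific enzymes of high affinity, were higher in PEG-fused PNAs. Pde8a (ENSRNOG00000019005) had counts of 1002, 1178 and 1129 in PEG, 727, 733 and 806 in NC and 487 and 580.3 in Unop, at a log2 fold change of 0.54 ± 0.11 (SE, limma adjusted p = 0.00808). Pde8b (ENSRNOG00000010280) had counts of 56.5, 88.8 and 68.5 in PEG, 27.7, 44.1 and 24.1 in NC and 7.51 and 6.25 in Unop, at a log2 fold change of 1.16 ± 0.31 (SE, limma adjusted p = 0.0271). Both fell in the order PEG-fused, NC and Unop with no overlap between any groups. Pde8b lost its call without PEG 2, PEG 3, NC 1 or NC 3 (adjusted p = 0.0665 to 0.106), whereas Pde8a was called under each alternative run, a log2 fold change threshold of 1 aside. Pde4a, Pde4c (ENSRNOG00000019518) and Pde7b were not called, at log2 fold changes of 0.08, -0.66 and -0.51.

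Of the phosphodiesterases that hydrolyse both cAMP and cGMP, 3 of 7 tested genes were higher and 1 was lower in PEG-fused PNAs. Pde1c (ENSRNOG00000012337), activated by calcium and calmodulin, had counts of 643, 711 and 595 in PEG, 216, 176 and 152 in NC and 837 and 760.5 in Unop. The NC PNAs stood far below the other groups, with a mean of 182 ± 32.2 (SD, n = 3) against 649.8 ± 58.6 (SD, n = 3) in PEG-fused PNAs, and the log2 fold change was 1.84 ± 0.15 (SE, limma adjusted p = 0.000439). Pde1a (ENSRNOG00000054212), of the same calcium-dependent family, had counts of 311, 419 and 300.2 in PEG, 198, 171 and 271 in NC and 226 and 230.1 in Unop. Its PEG-fused PNAs lay above both other groups, and its NC PNAs spanned the Unop level, with a log2 fold change of 0.69 ± 0.20 (SE, limma adjusted p = 0.0366). Pde3a (ENSRNOG00000025042), an enzyme that cGMP inhibits and that is known from heart, platelets and vascular smooth muscle, had counts of 127, 132 and 128 in PEG, 69.7, 42.0 and 77.2 in NC and 117 and 164 in Unop. PEG-fused PNAs and Unop nerves overlapped and the NC PNAs lay below both, at a log2 fold change of 1.07 ± 0.26 (SE, limma adjusted p = 0.0177) over NC PNAs.

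Pde3b (ENSRNOG00000011417), the form known from adipocytes and insulin action, went the other way. Its counts were 789.7, 646 and 688 in PEG, 919, 1408 and 1415 in NC and 850.0 and 592 in Unop, with NC PNAs highest and PEG-fused PNAs within the range of the Unop nerves. The log2 fold change was -0.79 ± 0.20 (SE, limma adjusted p = 0.021), and as with Pde4b the lowest NC library was NC 1 and the lowest PEG-fused library PEG 2. Pde1b, Pde2a and Pde10a were not called, at log2 fold changes of 0.06 (adjusted p = 0.922), -0.64 (adjusted p = 0.0657) and 0.69 (adjusted p = 0.278). The calls of Pde1a were lost without PEG 1, PEG 2, PEG 3, NC 1 or NC 2 (adjusted p = 0.0594 to 0.129), with a block by replicate number (adjusted p = 0.0708) and in a fit of these 2 groups only (adjusted p = 0.0533). Those of Pde3a were lost without PEG 2 or PEG 3 (adjusted p = 0.0535 to 0.0613) and those of Pde3b without PEG 2, PEG 3, NC 2 or NC 3 (adjusted p = 0.0591 to 0.0774).

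Among the cGMP-specific phosphodiesterases, Pde5a (ENSRNOG00000014443), the target of sildenafil, had counts of 319, 395 and 333 in PEG, 191, 178 and 161 in NC and 422 and 492 in Unop. Each PEG-fused PNA lay above each NC PNA and below each Unop nerve, and the log2 fold change over NC PNAs was 0.98 ± 0.14 (SE, limma adjusted p = 0.00223). Pde6c (ENSRNOG00000016593), a catalytic subunit known from cone photoreceptors, had few reads, with 1, 2 and 4 reads in PEG-fused, 12, 16 and 9 in NC and 6 and 18 in Unop libraries. It was lower in PEG-fused than in NC PNAs at a log2 fold change of -2.10 ± 0.56 (SE, limma adjusted p = 0.0259), and the call was lost without PEG 1, PEG 2 or NC 2 (adjusted p = 0.0738 to 0.079). Pde6a, at 2, 2 and 5 reads in PEG-fused and 13, 13 and 3 in NC libraries, was not called. Pde9a, a cGMP hydrolase of high affinity, had counts of 339, 272 and 273 in PEG and 231, 226 and 198 in NC, without overlap, and its log2 fold change of 0.43 (adjusted p = 0.0626) was not called. Pde6d and Pde12 match the symbol rule but are a chaperone of prenylated proteins and a nuclease of oligoadenylates, and neither was called between PEG-fused and NC PNAs, at log2 fold changes of 0.03 and -0.10.

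**Figure D3:**
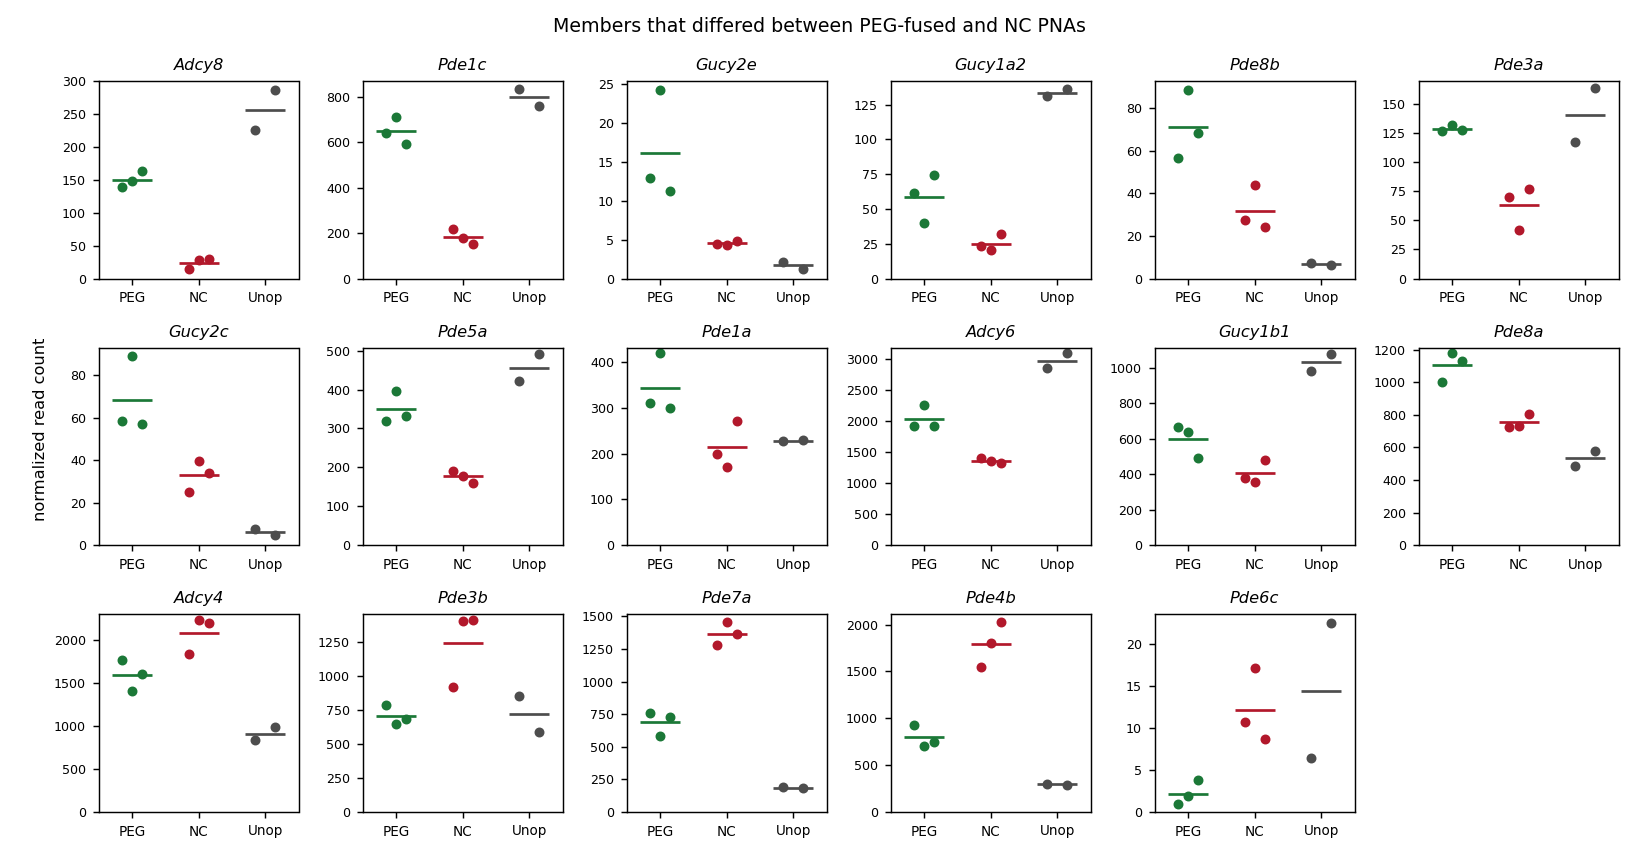
Normalized read counts (y axes, from 0) of the 17 genes called between PEG-fused and NC PNAs, with 1 point per library and a line at the mean of each group, ordered from the largest positive to the largest negative log2 fold change. In the first 12 panels each PEG-fused PNA lies above each NC PNA, in the last 5 below, and Adcy8 and Pde1c stand at 14.3 to 29.9 and 152 to 216 in NC PNAs against 139 to 163 and 595 to 711 in PEG-fused PNAs.

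The sequences just upstream of the transcription starts were examined for the letters of the cAMP response element, TGACGTCA, which the factor Creb1 is known to bind, and of its shorter forms TGACGT and TGACG. RefSeq promoters of the rat build GRCr8, from 250 bases before to 50 bases after a start, were given for 36 of the 51 symbols, as 49 windows. Searched on both strands, the shorter forms being contained in the longer, TGACGTCA occurred in 0 of the 49 windows (1.83% of all 33469 promoters), TGACGT in 4 (8.16%, beside 7.94%) and TGACG in 10 (20.4%, beside 21.2%). These shares were close to those of all promoters. Windows are printed here for Pde1c and Pde5a, among the genes higher in PEG-fused PNAs, for Pde4b, among those lower, and for the window of Pde4d that held TGACGT, as the 250 upstream bases in the direction of transcription. Capitals mark TGACG or its reverse complement, and only the window of Pde4d holds it. The window of Pde1c lies at chr4:87108135-87108384 on the minus strand and that of Pde5a at chr2:213543776-213544025 on the plus strand. The windows of Pde4b lie at chr5:122028706-122028955 and chr5:122222323-122222572, and that of Pde4d, 1 of 5 windows of this gene, at chr2:42592499-42592748, all on the plus strand.
Pde1c: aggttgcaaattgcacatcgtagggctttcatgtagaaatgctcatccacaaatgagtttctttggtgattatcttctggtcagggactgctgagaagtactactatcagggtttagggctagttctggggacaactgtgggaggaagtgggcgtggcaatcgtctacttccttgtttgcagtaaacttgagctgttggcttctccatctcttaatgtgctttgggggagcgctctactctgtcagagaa
Pde5a: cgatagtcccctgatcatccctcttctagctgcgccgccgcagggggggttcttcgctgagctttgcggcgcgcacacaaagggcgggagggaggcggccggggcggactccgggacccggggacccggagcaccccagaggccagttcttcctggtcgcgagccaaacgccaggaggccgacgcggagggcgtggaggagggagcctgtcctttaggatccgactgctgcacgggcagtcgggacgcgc
Pde4b, window 1: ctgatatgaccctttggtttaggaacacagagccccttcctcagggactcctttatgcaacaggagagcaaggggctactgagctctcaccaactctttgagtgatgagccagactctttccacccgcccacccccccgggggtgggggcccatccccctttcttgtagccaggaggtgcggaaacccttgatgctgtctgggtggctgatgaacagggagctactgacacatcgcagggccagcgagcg
Pde4b, window 2: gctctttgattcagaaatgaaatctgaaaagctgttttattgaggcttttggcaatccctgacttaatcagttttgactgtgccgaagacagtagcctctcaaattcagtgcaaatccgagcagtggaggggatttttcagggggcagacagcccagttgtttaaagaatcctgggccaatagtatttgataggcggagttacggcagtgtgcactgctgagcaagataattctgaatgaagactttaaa
Pde4d, window 3: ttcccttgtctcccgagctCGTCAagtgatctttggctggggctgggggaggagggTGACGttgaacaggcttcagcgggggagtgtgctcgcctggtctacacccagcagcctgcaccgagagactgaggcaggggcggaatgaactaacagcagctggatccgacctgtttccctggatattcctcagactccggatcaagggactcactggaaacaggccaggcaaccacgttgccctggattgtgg

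The last roles are those of the enzymes that read the messengers. None of the 9 tested subunits of PKA, PKG and Epac was called between PEG-fused and NC PNAs by limma, beside 28.9% of all tested genes. Their log2 fold changes were between -0.19 and 0.80. PKG stands here for Prkg2 alone, since no gene with the symbol Prkg1 was among those that matched the rule. At an unadjusted p under 0.05, 2 of these 9 passed, and edgeR and DESeq2 on the recovered reads also called 0. Rapgef4, the Epac form known from neurons and endocrine cells, came nearest with counts of 94.5, 105 and 89.1 in PEG and 68.8, 42.0 and 56.0 in NC, which did not overlap, at a log2 fold change of 0.80 ± 0.31 (SE, limma adjusted p = 0.0825). The catalytic subunits Prkaca and Prkacb were at -0.19 ± 0.10 (SE, limma adjusted p = 0.197) and 0.03 ± 0.08 (SE, limma adjusted p = 0.817). The regulatory subunits Prkar1a, Prkar1b, Prkar2a and Prkar2b were at log2 fold changes of 0.16, 0.36, 0.31 and -0.09, and the membrane-bound PKG gene Prkg2, at counts of 18.5, 16.8 and 13.1 in PEG and 4.47, 6.45 and 23.2 in NC, at 0.77 (adjusted p = 0.322).

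The next comparisons asked how each kind of allograft differed from intact nerve. Both use the same 2 Unop nerves, so their values are given side by side. In PEG-fused PNAs, 31 of 47 genes were called against Unop nerves (66.0%), beside 57.7% of all tested genes. They were 15 higher (31.9%) and 16 lower (34.0%), beside 29.1% and 28.6%. The higher ones include Gucy2e and Gucy1b2, which reached the minimum of 10 counts through PEG-fused PNAs alone. Gucy2d, called lower in both kinds of PNA, reached it through Unop nerves alone. In NC PNAs, 33 of 47 were called (70.2%), beside 64.5% of all tested genes, as 13 higher (27.7%) and 20 lower (42.6%), beside 32.2% and 32.3%. No overlap with Unop nerves was seen in 42 genes of PEG-fused PNAs (89.4%) and 36 of NC PNAs (76.6%), beside 74.5% and 74.6% of all tested genes. Both called and past a log2 fold change of 1 or -1 were 22 and 25 of the 47 genes, beside 32.3% and 38.6% of all tested genes. The median log2 fold changes were -0.23 in PEG-fused and -0.12 in NC PNAs, beside 0.0132 and 0.0216 over all tested genes. Over the same comparisons the 7 T cell and 7 macrophage markers were all called higher in PNAs and the 7 myelinating Schwann cell markers all lower, and the part of cell composition was not tested.

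Adenylyl cyclases stood on opposite sides of intact nerve. Adcy7, printed above, had a mean of 151 ± 24.5 (SD, n = 2) in intact nerve. PEG-fused and NC PNAs were higher by log2 fold changes of 3.82 ± 0.21 (SE, limma adjusted p = 3.19e-06) and 4.23 ± 0.21 (SE, limma adjusted p = 1.41e-06), the largest rises among the 47 genes. Adcy4 was also higher, by 0.80 ± 0.14 (SE, limma adjusted p = 0.00129) and 1.19 ± 0.14 (SE, limma adjusted p = 0.000107). Adcy1, a calcium-stimulated cyclase known from neurons, had counts of 38.9, 26.2 and 46.9 in PEG, 92.0, 19.4 and 51.1 in NC and 463 and 728 in Unop, so that Unop nerves were far above every PNA. Its log2 fold changes were -3.96 ± 0.58 (SE, limma adjusted p = 0.00055) in PEG-fused and -3.65 ± 0.58 (SE, limma adjusted p = 0.000672) in NC PNAs. Adcy6 was lower than in Unop nerves in both kinds of PNA, by -0.55 ± 0.10 (SE, limma adjusted p = 0.00174) and -1.12 ± 0.10 (SE, limma adjusted p = 2.34e-05), as was Adcy3, the cyclase of olfactory neurons and primary cilia, by -0.43 ± 0.14 (SE, limma adjusted p = 0.0293) and -0.37 ± 0.14 (SE, limma adjusted p = 0.0492). The call of Adcy3 in NC PNAs was lost in 10 of 18 alternatives (adjusted p up to 0.149), which were the pseudocount of 8, no filter, edgeR with median-of-ratios factors, the fit of these 2 groups only, and the fits without PEG 1, PEG 2, NC 1, NC 3, Unop 1 or Unop 2. That in PEG-fused PNAs was lost without PEG 1, PEG 2, Unop 1 or Unop 2 (adjusted p = 0.0782 to 0.106).

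Adcy8 was called in NC PNAs at a log2 fold change of -3.41 ± 0.32 (SE, limma adjusted p = 3.34e-05) against Unop nerves, and not in PEG-fused PNAs at -0.76 ± 0.32 (SE, limma adjusted p = 0.0738), although the 3 groups did not overlap. The PEG-fused value passed the threshold in 7 of 18 alternatives, with adjusted p from 0.012 to 0.285. Adcy9 was called in NC PNAs at -0.49 ± 0.17 (SE, limma adjusted p = 0.0299) and not in PEG-fused PNAs at -0.07 ± 0.17 (SE, limma adjusted p = 0.732). The soluble cyclase Adcy10 was likewise at 0.85 ± 0.25 (SE, limma adjusted p = 0.0169) and 0.47 ± 0.25 (SE, limma adjusted p = 0.147). The call of Adcy9 was lost in 5 of 18 alternatives, namely without PEG 1, NC 2 or Unop 1 (adjusted p = 0.0513 to 0.125), with the block (adjusted p = 0.0606) and in a fit of these 2 groups only (adjusted p = 0.0824). That of Adcy10 was lost without NC 3 or Unop 1 (adjusted p = 0.054 to 0.0836) and with the block (adjusted p = 0.0523). Whether such a pair of values differs is tested by PEG-fused against NC PNAs, where Adcy8 was called and Adcy9 and Adcy10 were not. Adcy2 and Adcy5 were not called against Unop nerves, at log2 fold changes between -0.46 and 1.03.

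Soluble guanylyl cyclase was lower in PNAs than in intact nerve in its 3 main subunits. Gucy1a1 averaged 2203 ± 53.6 (SD, n = 2) in Unop nerves and was lower by log2 fold changes of -1.74 ± 0.15 (SE, limma adjusted p = 3.01e-05) in PEG-fused and -1.46 ± 0.15 (SE, limma adjusted p = 5.47e-05) in NC PNAs. Gucy1a2 was at -1.22 ± 0.32 (SE, limma adjusted p = 0.0111) and -2.39 ± 0.32 (SE, limma adjusted p = 0.00026), and Gucy1b1 at -0.79 ± 0.18 (SE, limma adjusted p = 0.00498) and -1.35 ± 0.18 (SE, limma adjusted p = 0.000219). The call of Gucy1a2 in PEG-fused PNAs was lost without Unop 2 (adjusted p = 0.0546). The counts of these subunits did not overlap with those of the Unop nerves in either kind of PNA. Gucy1b2 was called higher in PEG-fused PNAs, at 2.04 ± 0.66 (SE, limma adjusted p = 0.027) over Unop counts of 8.59 and 1.25, and was not called in NC PNAs at 0.75 ± 0.66 (SE, limma adjusted p = 0.346). Only PEG-fused PNAs reached 10 counts of it, and the call was lost without PEG 1, PEG 2 or Unop 2 (adjusted p = 0.0634 to 0.213), with the block (adjusted p = 0.0716) and with DESeq2 (adjusted p = 0.0682). Smooth muscle cells and pericytes are known to express Gucy1a1 and Gucy1b1. Of their 7 markers, 4 were called lower and 1 higher (Rgs5) in PEG-fused PNAs. In NC PNAs, 5 were called lower and 1 higher (Des). The marker sums were between 46957 and 55692 in Unop nerves, 23085 and 28089 in PEG-fused and 19772 and 44851 in NC PNAs. The NC sums include Des at 33528, 7450 and 21082 in NC 1, NC 2 and NC 3, the order of their skeletal muscle sums. The part of smooth muscle cells and pericytes in Gucy1a1 and Gucy1b1 was not tested.

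The receptor cyclase Gucy2c rose in PNAs from Unop counts of 7.51 and 5.0, by log2 fold changes of 3.24 ± 0.35 (SE, limma adjusted p = 9.74e-05) in PEG-fused and 2.22 ± 0.35 (SE, limma adjusted p = 0.00062) in NC PNAs. Gucy2d, known from olfactory neurons in rodents, was at 15 and 50 reads in the Unop nerves, 4, 1 and 4 in PEG-fused and 7, 0 and 3 in NC libraries. It was lower in both kinds of PNA at -3.23 ± 0.93 (SE, limma adjusted p = 0.0168) and -3.44 ± 0.93 (SE, limma adjusted p = 0.0113). Only the Unop nerves reached 10 counts of Gucy2d, and these 2 differed widely from each other. Without either of them it was not tested, and its call in PEG-fused PNAs was lost without PEG 2 (adjusted p = 0.0507). Gucy2e had 2 and 1 reads in the Unop nerves, and was called higher in PEG-fused (adjusted p = 0.00141) and not in NC PNAs (adjusted p = 0.0724). It reached 10 counts, and so was tested, through the PEG-fused PNAs alone.

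All 8 tested cAMP-specific phosphodiesterases were called against Unop nerves in either kind of PNA, 6 higher and 2 lower. Of all tested genes, 57.7% were called in PEG-fused and 64.5% in NC PNAs. Pde7a, with Unop counts of 192 and 180.1, was higher by log2 fold changes of 1.88 ± 0.14 (SE, limma adjusted p = 1.23e-05) in PEG-fused and 2.87 ± 0.14 (SE, limma adjusted p = 1.3e-06) in NC PNAs. Pde4b was higher by 1.41 ± 0.15 (SE, limma adjusted p = 0.000107) and 2.59 ± 0.15 (SE, limma adjusted p = 3.11e-06), or 2.69-fold and 6.06-fold in ratios of means. For Pde8b the values were 3.18 ± 0.35 (SE, limma adjusted p = 0.000116) and 2.02 ± 0.35 (SE, limma adjusted p = 0.00112), and for Pde8a 1.05 ± 0.12 (SE, limma adjusted p = 0.000154) and 0.50 ± 0.12 (SE, limma adjusted p = 0.00652). Pde4a had counts of 182, 207 and 225 in PEG, 196, 160.3 and 229.6 in NC and 66.5 and 66.3 in Unop, with almost equal levels in the PNAs of either kind, at 1.60 ± 0.20 (SE, limma adjusted p = 0.000232) and 1.53 ± 0.20 (SE, limma adjusted p = 0.000228). Pde4d was higher by 1.44 ± 0.27 (SE, limma adjusted p = 0.00211) and 2.18 ± 0.27 (SE, limma adjusted p = 0.00016).

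The 2 cAMP-specific enzymes that were lower were Pde4c and Pde7b. Pde4c (ENSRNOG00000019518) had counts of 26.0, 37.4 and 37.5 in PEG, 55.4, 63.5 and 42.4 in NC and 536 and 712 in Unop, which put each Unop nerve at several times the highest PNA. Its log2 fold changes of -4.18 ± 0.28 (SE, limma adjusted p = 7.84e-06) in PEG-fused and -3.52 ± 0.28 (SE, limma adjusted p = 1.2e-05) in NC PNAs were the largest falls of a phosphodiesterase in either comparison. Pde7b had counts of 72.3, 78.5 and 80.7 in PEG, 163, 71.0 and 116 in NC and 233 and 293 in Unop, and was lower by -1.75 ± 0.32 (SE, limma adjusted p = 0.0019) and -1.24 ± 0.32 (SE, limma adjusted p = 0.00937). Its call in NC PNAs was lost without Unop 2 (adjusted p = 0.0656).

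Of the 7 tested phosphodiesterases that act on both messengers, 1 was called in PEG-fused (14.3%) and 3 in NC PNAs (42.9%) against Unop nerves. Of the 4 that act on cGMP, 2 were called in each (50%). The shares of all tested genes were 57.7% and 64.5%. Pde1c was lower in NC PNAs by a log2 fold change of -2.14 ± 0.17 (SE, limma adjusted p = 1.18e-05) and was at -0.30 ± 0.17 (SE, limma adjusted p = 0.158) in PEG-fused PNAs. Pde5a was at -1.36 ± 0.16 (SE, limma adjusted p = 0.000108) in NC PNAs and -0.39 ± 0.16 (SE, limma adjusted p = 0.0641) in PEG-fused PNAs, and Pde3a at -1.17 ± 0.29 (SE, limma adjusted p = 0.00732) and -0.10 ± 0.29 (SE, limma adjusted p = 0.776). In Pde1c and Pde5a the PEG-fused PNAs still lay below both Unop nerves without overlap. Pde3b was higher in NC PNAs at 0.79 ± 0.23 (SE, limma adjusted p = 0.0147) and was at -0.01 ± 0.23 (SE, limma adjusted p = 0.979) in PEG-fused PNAs. The calls of Pde3a and Pde3b in NC PNAs were lost without Unop 2, at adjusted p of 0.0595 and 0.124.

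Pde9a was lower in both, at -0.92 ± 0.17 (SE, limma adjusted p = 0.00166) in PEG-fused and -1.35 ± 0.17 (SE, limma adjusted p = 0.000153) in NC PNAs, from Unop counts of 615 and 502. Pde6c was lower in PEG-fused PNAs at -2.15 ± 0.63 (SE, limma adjusted p = 0.0179), a call that was lost without PEG 1 or Unop 2 (adjusted p = 0.0538 to 0.165), and was not called in NC PNAs at -0.05 ± 0.63 (SE, limma adjusted p = 0.946). Pde10a, known from striatal neurons, was higher in PEG-fused PNAs at 1.40 ± 0.50 (SE, limma adjusted p = 0.0392), and lost this call in 9 of 18 alternatives, among them edgeR (adjusted p = 0.06). Pde1a, Pde1b, Pde2a and Pde6a were not called against Unop nerves, with log2 fold changes between -1.0 and 0.57. Of the genes that are no cyclic nucleotide hydrolases, Pde6d was lower at -1.02 ± 0.12 (SE, limma adjusted p = 0.000176) and -1.05 ± 0.12 (SE, limma adjusted p = 0.000109), and Pde12 higher at 0.68 ± 0.13 (SE, limma adjusted p = 0.00208) and 0.78 ± 0.13 (SE, limma adjusted p = 0.000807).

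**Figure D4:**
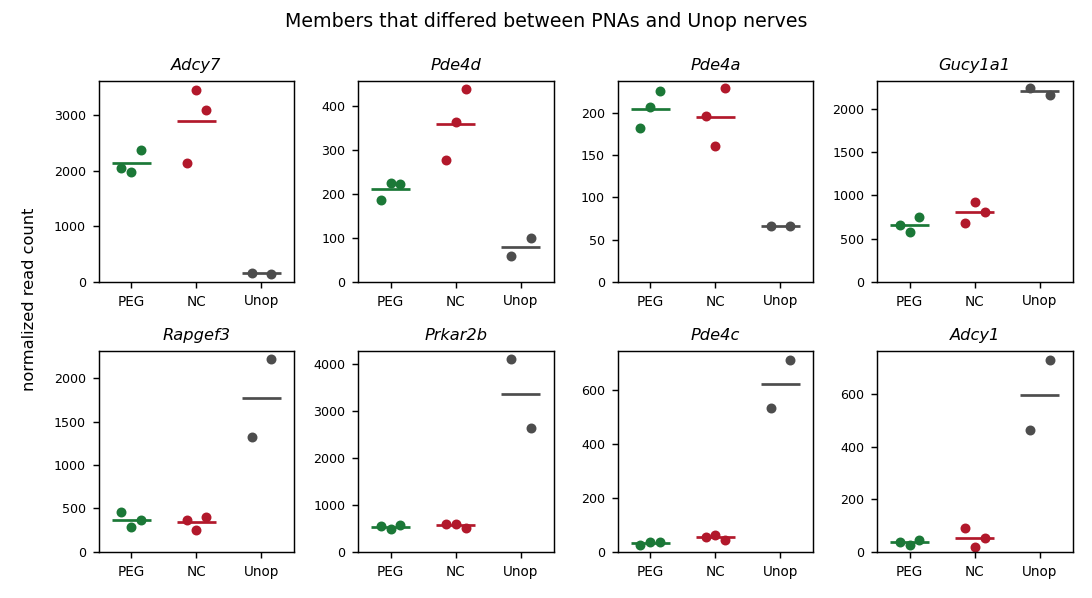
Normalized read counts (y axes, from 0) of 8 genes that differed between PNAs and Unop nerves, with 1 point per library and a line at the mean of each group. Adcy7, Pde4d and Pde4a lie lower and Gucy1a1, Rapgef3, Prkar2b, Pde4c and Adcy1 higher in the Unop nerves than in any PNA, with Adcy7 at 134 and 168 in Unop nerves and 1975 or more in PNAs.

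Among the genes of PKA, PKG and Epac, which read the messengers, 6 of 9 tested genes were called in PEG-fused and 5 of 9 in NC PNAs against Unop nerves. The shares of all tested genes were 57.7% and 64.5%. Prkar2b (ENSRNOG00000009079), a regulatory subunit known from neurons and adipose tissue, had counts of 541, 479.6 and 567 in PEG, 589.8, 597 and 504 in NC and 4095 and 2640.3 in Unop. The PNAs of either kind lay together, at a level that was lower by log2 fold changes of -2.64 ± 0.18 (SE, limma adjusted p = 1.04e-05) and -2.55 ± 0.18 (SE, limma adjusted p = 8.08e-06). Adipocyte markers were lower in the same PNAs, with the sums given above, and their part in Prkar2b was not tested. Prkar1a, the widely expressed regulatory subunit, had a mean of 10089 ± 732 (SD, n = 2) in Unop nerves and was lower by -0.68 ± 0.10 (SE, limma adjusted p = 0.000663) and -0.84 ± 0.10 (SE, limma adjusted p = 0.000148). Prkar1b was higher in PEG-fused PNAs at 0.59 ± 0.20 (SE, limma adjusted p = 0.0334), a call lost in 7 of 18 alternatives, and was not called in NC PNAs at 0.23 ± 0.20 (SE, limma adjusted p = 0.335). Prkar2a was not called, at 0.38 (adjusted p = 0.0523) and 0.07 (adjusted p = 0.684).

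The catalytic subunits had small differences. Prkacb had counts of 1689, 1605 and 1578 in PEG, 1524, 1585 and 1665 in NC and 1191 and 1344 in Unop and was higher in PNAs by log2 fold changes of 0.36 ± 0.09 (SE, limma adjusted p = 0.00988) and 0.33 ± 0.09 (SE, limma adjusted p = 0.0131), calls that were lost without Unop 1 (adjusted p = 0.0637 and 0.082). Prkaca had counts of 1269, 1247 and 1236 in PEG, 1542, 1309 and 1434 in NC and 1620.5 and 1328 in Unop, at -0.23 ± 0.11 (SE, limma adjusted p = 0.114) and -0.04 ± 0.11 (SE, limma adjusted p = 0.761). Rapgef3, the Epac form known from endothelium, had counts of 459.7, 280.5 and 369.6 in PEG, 362, 256 and 396 in NC and 1317 and 2216 in Unop. Every PNA lay far below both Unop nerves. Its log2 fold changes were -2.23 ± 0.29 (SE, limma adjusted p = 0.000295) and -2.36 ± 0.29 (SE, limma adjusted p = 0.00016). Rapgef4 was lower by -1.30 ± 0.34 (SE, limma adjusted p = 0.011) and -2.10 ± 0.34 (SE, limma adjusted p = 0.000765), and its call in PEG-fused PNAs was lost without Unop 1 (adjusted p = 0.0885), the Unop nerve in which it was higher. Prkg2 was not called in any comparison, at -0.06 (adjusted p = 0.938) and -0.84 (adjusted p = 0.259).

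The 5 genes that were not tested had few reads in every library. Gucy2f had between 0 and 4 reads, and Pde6b between 0 and 4. For Pde11a the range was 2 to 8 reads, for Gucy2g 1 to 8, and for the other Ensembl gene of Pde4c (ENSRNOG00000043249) 0 to 9. That gene had 0, 1 and 2 reads in PEG-fused, 5, 9 and 7 in NC and 1 and 3 in Unop libraries, so that the NC PNAs were highest. Where a read fits both genes of Pde4c, the counting could drop it. Of the tested genes, Pde6a, Gucy2d, Gucy2e and Gucy1b2 reached the minimum of 10 counts through 1 group alone, which bears on their calls.

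Genes upstream and downstream of these enzymes were counted from lists of the pathway. Between PEG-fused and NC PNAs, 15.0% of all tested genes were higher and 13.9% lower. Against Unop nerves, 29.1% were higher and 28.6% lower in PEG-fused PNAs, and 32.2% and 32.3% in NC PNAs. The list medians stand beside 0.00174 over all tested genes between PEG-fused and NC PNAs. Against Unop nerves they stand beside 0.0132 in PEG-fused and 0.0216 in NC PNAs. Of 8 tested Gs and Gi genes, 2 were called between PEG-fused and NC PNAs, both higher, at a list median log2 fold change of 0.12. These were Gnai1 and Gnao1, inhibitory alpha subunits, at 1.34 ± 0.22 (SE, limma adjusted p = 0.00365) and 1.49 ± 0.23 (SE, limma adjusted p = 0.00271). Gnai1 had counts of 266, 371 and 279.6 in PEG, 164, 104 and 98.4 in NC and 1846 and 2079 in Unop, so that PEG-fused PNAs lay between the groups. The gene of the stimulatory subunit, Gnas, stands on 2 Ensembl genes, neither of which was called in this comparison. Against Unop nerves, 4 of the 8 were lower in PEG-fused and 6 in NC PNAs.

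Of 26 tested receptors that raise or lower cAMP, 6 were higher and 6 lower in PEG-fused than in NC PNAs. The shares of all tested genes were 15.0% and 13.9%. The list median was 0.13. Adgrg6 (Gpr126), the receptor through which Schwann cells raise cAMP for myelination, had counts of 2375, 2606 and 2442 in PEG, 1964, 1566 and 1739 in NC and 4532 and 6129.9 in Unop, at 0.50 ± 0.13 (SE, limma adjusted p = 0.0227) over NC PNAs and -1.09 ± 0.14 (SE, limma adjusted p = 0.000316) and -1.59 ± 0.14 (SE, limma adjusted p = 2.7e-05) against Unop nerves in PEG-fused and NC PNAs. Adcyap1r1, the receptor of the peptide PACAP, was higher in PEG-fused PNAs at 1.48 ± 0.31 (SE, limma adjusted p = 0.00965). Among the 6 receptors that were lower were Adora2a and Ptger4, for adenosine and prostaglandin E, at -1.51 ± 0.17 (SE, limma adjusted p = 0.00102) and -1.37 ± 0.25 (SE, limma adjusted p = 0.0057). Adora2a had counts of 338, 323 and 349 in PEG, 785, 1273 and 883 in NC and 266 and 259 in Unop. Adrb1, a receptor of noradrenaline, had counts of 5.56, 9.35 and 14.1 in PEG-fused PNAs and 19.3 and 12.5 in Unop nerves, and was listed at 0 in all NC PNAs. With Adrb1 at the bound that 3 counts per library allow, the list median was unchanged. Against Unop nerves, 5 receptors were higher and 9 lower in PEG-fused PNAs, and 6 higher and 11 lower in NC PNAs, at medians of -0.46 and -0.43.

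Among 8 tested genes that feed cGMP synthesis, 2 were higher and 2 lower in PEG-fused than in NC PNAs. The shares of all tested genes were 15.0% and 13.9%. The list median was 0.55. Npr1 and Npr2, receptor guanylyl cyclases of natriuretic peptides whose symbols lie outside the rule, moved apart, at -0.69 ± 0.18 (SE, limma adjusted p = 0.0213) and 0.74 ± 0.09 (SE, limma adjusted p = 0.00133). The ligand gene Nppb was higher at 2.03 ± 0.44 (SE, limma adjusted p = 0.0109). Nos2, the inducible nitric oxide synthase known from activated macrophages, had counts of 8.34, 1.87 and 8.44 in PEG-fused and 32.2, 219 and 183 in NC PNAs, at -4.13 ± 0.78 (SE, limma adjusted p = 0.00638), and was listed at 0 in both Unop nerves. The list medians against Unop nerves were -0.42 in PEG-fused PNAs (2 higher, 4 lower) and -0.29 in NC PNAs (1 higher, 4 lower), also with Nos2 at its bound.

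Of 16 tested PKA anchors and inhibitors, 1 was higher and 1 lower in PEG-fused than in NC PNAs. The shares of all tested genes were 15.0% and 13.9%. The list median was -0.14. The anchor Akap12 had counts of 3191, 3193 and 3628 in PEG, 1631, 1246 and 1518 in NC and 11918 and 11423 in Unop, at 1.19 ± 0.11 (SE, limma adjusted p = 0.000589) over NC PNAs and at -1.81 ± 0.13 (SE, limma adjusted p = 9.72e-06) and -3.00 ± 0.13 (SE, limma adjusted p = 8.17e-07) against Unop nerves in PEG-fused and NC PNAs. Pkib, a peptide inhibitor of PKA, had counts of 156, 155 and 174 in PEG, 353, 457 and 249 in NC and 30.1 and 26.3 in Unop, at -1.08 ± 0.23 (SE, limma adjusted p = 0.0102). PEG-fused PNAs thus lay between the other groups in both genes, below Unop nerves in the first and above them in the second. Against Unop nerves, 4 genes of this list were higher and 4 lower in PEG-fused PNAs, and 5 and 5 in NC PNAs, at medians of -0.17 and -0.32.

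Of 29 tested effectors and genes of cAMP-responsive transcription, 2 were higher and 5 lower in PEG-fused than in NC PNAs. The shares of all tested genes were 15.0% and 13.9%. The list median was -0.11. Mrvi1, a substrate of PKG in smooth muscle, was among the higher ones at 0.80 ± 0.17 (SE, limma adjusted p = 0.0108). The lower ones were Nr4a1, Nr4a3, Sik1, Crtc2 and Vasp, at log2 fold changes of -0.81, -1.51, -0.69, -0.43 and -1.05. Crtc2 is known as a coactivator of Creb1 and Vasp as a substrate of PKA and PKG. Creb1 and Crem were not called, at -0.04 (adjusted p = 0.876) and -0.32 (adjusted p = 0.143). Fos, Nr4a2 and Per1 of the same list were not called either, at 0.59 (adjusted p = 0.0727), -0.19 (adjusted p = 0.375) and -0.48 (adjusted p = 0.427). The activity of Creb1 was not tested. Against Unop nerves, 8 genes were higher and 8 lower in PEG-fused and 9 and 9 in NC PNAs, at medians of 0.02 and 0.14. The efflux transporters Abcc4 and Abcc5 were not called between the kinds of PNA, at 0.35 (adjusted p = 0.116) and 0.01 (adjusted p = 0.979).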

How the data were processed

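Bulk RNA-seq libraries from 8 separate animals were compared, with 3 each of PEG-fused and NC PNAs and 2 of Unop nerves. The signal values deposited by the authors are normalized read counts: paired-end reads of stranded libraries were aligned to Rnor 6.0 with TopHat2, assigned to Ensembl genes with HTSeq-count, and the counts were scaled by DESeq2 median-of-ratios size factors (versions not given in the sources used here). The authors' own fold changes, Wald statistics and p-values, also deposited, were not used. All values (100%) were whole multiples of 1 read within 0.001, so whole reads were recovered. The labels name no batch. The library names begin with G in all PEG, I in all NC and UN in all Unop samples, and the labels do not explain these letters. A difference tied to them could not be told apart from the group.

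All 8 libraries were fitted with limma 3.58.1 (trend) on log2(normalized read count + 1), with group means and no covariates, where 2 or more libraries reached 10 normalized counts. P-values were adjusted by the Benjamini-Hochberg method over 16478 tested genes. The fit was tested on simulated counts. Alternatives were a pseudocount of 8, no filter, a filter of 50 counts, TMM rescaling, edgeR 4.0.16 and DESeq2 1.42.0 on the recovered reads, a block by replicate number, robust estimation, 2 groups only, omission of each library in turn and a log2 fold change threshold of 1.

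Genes, lists and tests were chosen with earlier results of these data known. Values in every library are given for genes called between PEG-fused and NC PNAs, for the 10 genes with the smallest adjusted p past a log2 fold change of 1 or -1 against Unop nerves, and for Adcy8, Pde1c and Pde3a, which the paper names (21 in all), and for others that fill out a role. Pathway genes with values were chosen after their values were seen. A further gene that is counted in these lists is not named or reported here.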

Additional observations from a re-analysis of the deposited data

How the results depend on the processing

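Of the 17 genes called between PEG-fused and NC PNAs, 7 were called under every alternative in which they were tested, a log2 fold change threshold of 1 aside (Adcy6, Adcy8, Pde1c, Pde4b, Pde5a, Pde7a and Pde8a), as were 22 of 31 and 26 of 33 in PEG-fused and NC PNAs against Unop nerves, and no called gene changed direction. With a log2 fold change threshold of 1, 9 of these 17 genes remained. When each library was left out in turn, the count of 17 at adjusted p under 0.05 ranged from 8 (without PEG 2) to 19 (without either Unop nerve), with 10 without PEG 3. Leaving out an Unop nerve leaves 1, which is assumed to vary like the other groups.

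With a block by replicate number, 13, 30 and 32 genes were called in the 3 comparisons. Nothing in the labels ties same-numbered samples, and the numbers were not taken to pair them. Deviations of same-numbered PEG-fused and NC PNAs correlated at 0.108, 0.109 and -0.0502, and PEG 3 correlated best with NC 2. Against Unop nerves, with only 2 pairs each, the correlations were 0.154 and 0.136 for PEG-fused and 0.152 and 0.157 for NC PNAs.

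Reversals were seen only in values that were not called. Pde3b in PEG-fused PNAs against Unop nerves turned to 0.010 with TMM rescaling and ranged from -0.27 to 0.25 without single libraries. Without single libraries, Pde6c in NC PNAs against Unop nerves ranged from -0.88 to 0.78, Pde1a in NC PNAs from -0.31 to 0.023 and Pde3a in PEG-fused PNAs from -0.35 to 0.14. The cause was not tested. Genes under about 10 counts, such as Gucy2d, Gucy2e and Pde6c, are limited by depth, and Unop by 2 nerves.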
